A study of Mus musculus with 12 samples.

Results

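Ribosome footprints on 9 loci of mouse small-intestinal organoids were higher in Eif4g2 homozygous mutants (KO) than in wild type (WT), while their pooled RNA-seq level lay near that of WT. The set was chosen on these data by a rule. A transcript row had to have a length value of at least 91 and below 1000, at least 30 RNA-seq counts in the pooled WT and in the pooled KO libraries, and at least 200 pooled KO footprint counts. Its log2 ratio of KO to WT, in CPM (counts per 1000000 counts) of the 2 pooled replicates, had to lie from -0.4 to 0.4 in RNA-seq and at or above 0.7 in ribosome profiling. Rows with equal counts in all 12 tables were taken as 1 row. The rule found 17 such rows, made of 21 deposited rows, among 35445 merged rows with a count in that length range. Of these 35445, 2972 passed the count floors and 1524 of them also lay in the RNA window. Because the KO and WT values of both assays chose the members, those values are given as a description and support nothing.

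In ribosome profiling, nuclease digests the mRNA that no ribosome covers, and the covered fragments, or footprints, are sequenced. A footprint count on a coding region therefore depends on how much mRNA there is and on how many ribosomes each mRNA carries. Footprints per RNA-seq signal, called ribosome density or translational efficiency, separate these contributions. Eif4g2 (also known as DAP5 or NAT1) is a relative of the scaffold eIF4G that lacks the part that binds the cap-binding protein eIF4E, and it takes part in initiation routes that do not follow the usual cap-dependent scanning.

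The series holds 6 RNA-seq and 6 ribosome profiling libraries, 2 for each genotype and assay. The genotypes were Eif4g2+/+ (WT), Eif4g2+/- (Het) and Eif4g2-/- (KO). The labels hold a number that an RNA-seq and a ribosome profiling library share, and do not say what it stands for. Libraries with the same number are called an organoid below for short, not as a claim that they come from a single organoid. The 2 organoids of a genotype are told apart as the lower-numbered and the higher-numbered one. Pairs of library values stand in that order. All organoids, WT included, grew for 3 days in basal medium with added growth factors (an epithelial growth factor, Noggin, R-spondin-1), and all received 0.5 µM 4-OHT (4-hydroxytamoxifen, which activates tamoxifen-inducible recombinases) for 24 hours. No recombinase or driver is given in the sources used here, nor whether the 2 organoids of a genotype come from separate animals. If they do not, p-values measure only the spread between these libraries, which may be technical. RNA-seq totals were 387649 to 447153 counts for WT, 554845 to 776173 for Het and 895431 to 1077663 for KO, so depth and genotype cannot be told apart in that assay. Footprint totals were 5551591 to 15566995 counts for WT, 11058505 to 15307550 for Het and 18246881 to 25899680 for KO. Both KO libraries were thus the deepest in ribosome profiling as well. Depth and the KO genotype cannot be told apart in that assay either. The tables name transcripts by ID only and the sources used here do not pair those IDs with genes. The level of Eif4g2 and the markers of intestinal cells were therefore not analysed here, and members are named by their length value, the whole number that the tables give for each transcript. This value is read here as a length of the coding sequence over which reads were counted, in a unit that is not stated. That reading was not tested, and the lowest value over all rows was -9, which no plain length can take. In 2039 merged rows of the length range used, the values of the rows merged differed, and the longest was kept.

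The 17 rows were not 17 genes. A cluster of 9 of them, with lengths from 685 to 987, lay next to each other in the tables and had nearly the same counts, as isoforms that share reads do. They are treated as 1 locus, represented by the row of length 987, which had the most KO footprint counts. Each of the other 8 rows stood for a locus of its own, with lengths of 173, 239, 305, 353, 402, 428, 461 and 661. The pooled footprint log2 ratio of KO to WT ran from 0.71 to 1.05 over the 17 rows with a median of 0.83, and over the 9 loci from 0.71 to 0.89 with a median of 0.75. The highest row was transcript ENSMUST00000238421.2, with length 778 and a ratio of 1.05, 1 of the 9 isoforms. The most abundant was transcript ENSMUST00000034751.6, with length 428, 6927 pooled KO footprint counts and a ratio of 0.72. Just inside the threshold lay the rows of length 461 (0.71), 305 (0.71) and 428 (0.72). Just outside it lay rows of length 413 (0.67), 532 (0.65) and 580 (0.61).

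**Figure D1:**
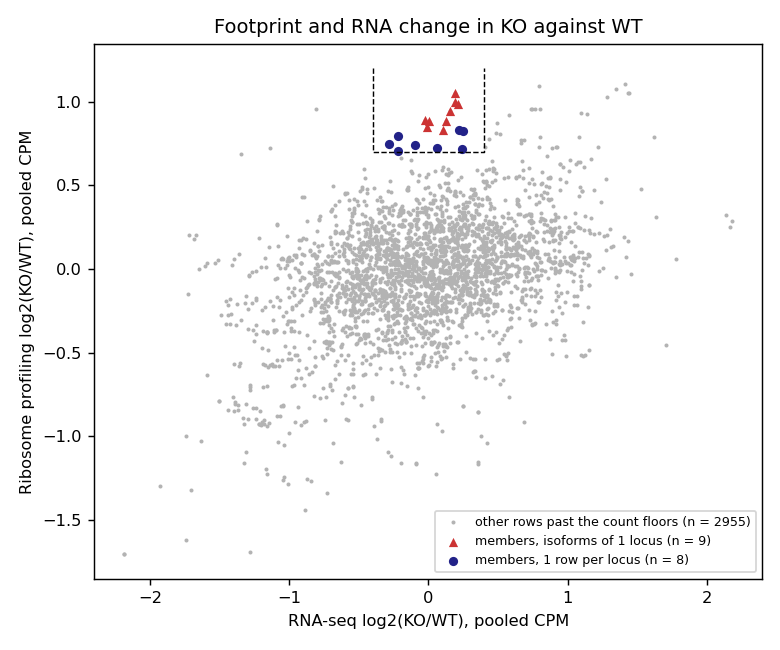
Log2 ratio of KO to WT in RNA-seq (x axis) and in ribosome profiling (y axis), from pooled CPM, for the 2972 rows past the count floors. The dashed frame marks the rule: 9 isoform rows of 1 locus (triangles) and 8 other rows (dark points) lie inside it.

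The RNA window removed most rows with a footprint rise of this size. Past the count floors, 48 rows from 27 loci had a footprint ratio at or above 0.7. In 29 of them, from 16 loci, the RNA ratio lay above 0.4, and in 2 it lay below -0.4. At the opposite threshold of -0.7, 21 rows from 13 loci in the RNA window had lower footprints in KO. The members are 1.12% of the 1524 rows in the RNA window.

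The members fell into 2 kinds by footprint abundance. At 7 loci the WT libraries had 28.3 to 97.0 footprint CPM. The row of length 428, the most abundant, had 97.0 and 90.2 footprint CPM in the WT libraries, 96.9 and 91.8 in the Het libraries, and 159 and 154 in the KO libraries. Here Het lay on WT, and both KO libraries stood far above all 4 others. Its RNA-seq level was 62.6 and 54.2 CPM for WT, 60.6 and 66.7 for Het, and 71.5 and 52.9 for KO, with the groups overlapping.

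At length 461, footprint CPM was 88.1 and 75.8 for WT, 101 and 124 for Het, and 145 and 129 for KO. The 3 genotypes followed each other without overlap, with Het in between. RNA-seq gave 58.1 and 82.5 CPM for WT, 50.2 and 77.5 for Het, and 80.4 and 42.7 for KO, so the spread between libraries of 1 genotype was as wide as that between genotypes.

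At length 402, footprint CPM was 62.8 and 57.1 for WT, 79.8 and 92.0 for Het, and 119.8 and 94.3 for KO. The order was again WT, Het, KO without overlap. RNA-seq was 53.7 and 23.2 CPM for WT, 51.5 and 90.1 for Het, and 46.9 and 45.5 for KO. The WT libraries thus lay on either side of the KO libraries, and the higher-numbered Het library stood above all the rest.

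At length 239, footprint CPM was 45.2 and 47.0 for WT, 49.1 and 46.0 for Het, and 80.3 and 71.7 for KO. Het and WT overlapped, as at length 428. RNA-seq was 44.7 and 41.3 CPM for WT, 41.2 and 50.5 for Het, and 40.2 and 31.5 for KO, with both KO libraries the lowest. It was the only 1 of the 9 loci with both KO RNA-seq libraries below both WT libraries. Of the 950 loci in the RNA window 17.4% had that order, so 1 of 9 is near the background.

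At length 173, footprint CPM was 37.6 and 36.6 for WT, 43.2 and 45.6 for Het, and 66.0 and 57.4 for KO. The locus of length 353 had 34.0 and 28.3 for WT, 35.9 and 35.3 for Het, and 62.4 and 50.5 for KO. That of length 305 had 32.6 and 30.3 for WT, 35.6 and 36.3 for Het, and 53.4 and 51.2 for KO. In these 3 rows both Het libraries lay above both WT libraries by a small step, and both KO libraries by a large one. Lengths 353 and 305 were also the 2 loci in which both KO RNA-seq libraries lay above both WT libraries, at 70.4 and 64.0 CPM against 62.6 and 49.0, and at 57.0 and 51.0 CPM against 42.5 and 49.0. Their Het libraries had 69.6 and 57.7 CPM, and 55.4 and 32.4 CPM. Both KO RNA-seq libraries lay above both WT libraries in 18.5% of the 950 loci in the RNA window, near the 2 of 9 loci here. At length 173 RNA-seq was 38.0 and 43.9 CPM for WT, 27.1 and 34.2 for Het, and 36.9 and 39.0 for KO, so here Het was the lowest genotype.

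The remaining 2 loci, the isoform cluster and the row of length 661, carried few footprints for their RNA. In the cluster, the row of length 987 had 3.21 and 3.78 footprint CPM for WT, 4.34 and 4.25 for Het, and 6.80 and 5.43 for KO. Its RNA-seq level was 67.1 and 56.8 CPM for WT, 58.0 and 41.5 for Het, and 54.7 and 66.8 for KO. The 3 genotypes did not overlap in footprints, and they did in RNA-seq. At length 661, footprint CPM was 3.85 and 4.32 for WT, 5.24 and 6.40 for Het, and 7.57 and 5.97 for KO. RNA-seq there was 73.8 and 103 CPM for WT, 67.0 and 90.1 for Het, and 77.1 and 73.3 for KO. Het and KO footprints overlapped at this locus, and both lay above WT. The ratio of footprint CPM to RNA-seq CPM in WT was 0.054 in the cluster's row and 0.045 at length 661, against 0.58 to 1.62 in the other 7 loci. Among the 1524 rows in the RNA window the median ratio was 0.38, and 2.82% and 1.77% of them lay below these 2 rows. The footprint floor was set on KO only, and the lowest pooled KO value in the RNA window was 4.53 CPM. Pooled WT footprints of the 2 rows were below it, at 3.36 and 3.98 CPM. Rows this low in WT could enter only if KO was higher, so the low ratios and these shares carry no test.

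**Figure D2:**
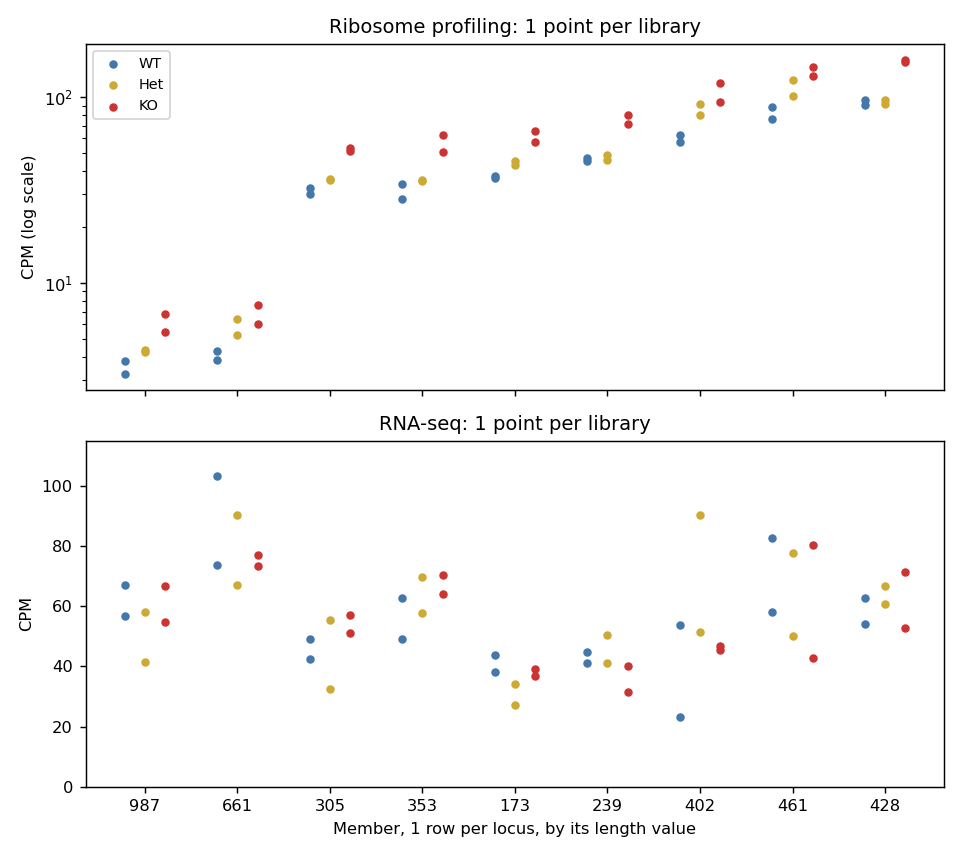
Footprint CPM (top, log scale) and RNA-seq CPM (bottom) of the 9 loci, 1 row per locus named by its length value, with 1 point per library and 2 libraries per genotype. Footprints of both KO libraries lie above both WT libraries at all 9 loci, while RNA-seq levels of KO and WT overlap at 6 of them.

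In footprints, both KO libraries lay above both WT libraries in 17 of 17 rows, against 35.2% of the rows in the RNA window; the rule used this contrast. The lower-numbered KO library exceeded the higher-numbered one in all 17 rows, against 58.5% of the rows in the RNA window, so the 2 KO libraries did not contribute equally. The part of that library in the rises was not tested beyond the counts without it. In RNA-seq the same order of the KO libraries was found in 7 of 9 loci, against 48.8% of the loci in the RNA window; by rows it was 7 of 17, since none of the 9 isoform rows of the cluster had it. The RNA-seq libraries of KO and WT overlapped in 6 of 9 loci, near the 64.1% of loci in the RNA window. By rows it was 14 of 17 against 64.6%, with the cluster entering 9 times. A change in the share of a cell type and a change in RNA or ribosomes per cell cannot be told apart in these bulk libraries.

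RNA-seq was too shallow to show that the RNA of a member stayed level. The members had 31 to 73 pooled WT counts and 70 to 148 pooled KO counts, close to the floor of 30, and none reached 100 in WT. The 95% interval of the RNA ratio (exact binomial, conditional on the summed counts, covering counting error only) was 0.84 to 1.25 wide on the log2 scale. It reached outside the window of the rule in 17 of 17 rows, above 0.4 in 14 and below -0.4 in 10. For the row of length 402 the RNA ratio of 0.22 had an interval from -0.37 to 0.84, and for the row of length 305 the ratio of 0.24 had one from -0.31 to 0.81. In these 2 loci the interval reached the locus' own footprint ratio, and in the other 7 it did not. Footprint intervals were 0.14 to 0.89 wide and excluded 0 in 17 of 17 rows. Their lower bound was at or above 0.7 only in the rows of length 402 (0.75) and 353 (0.70).

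**Figure D3:**
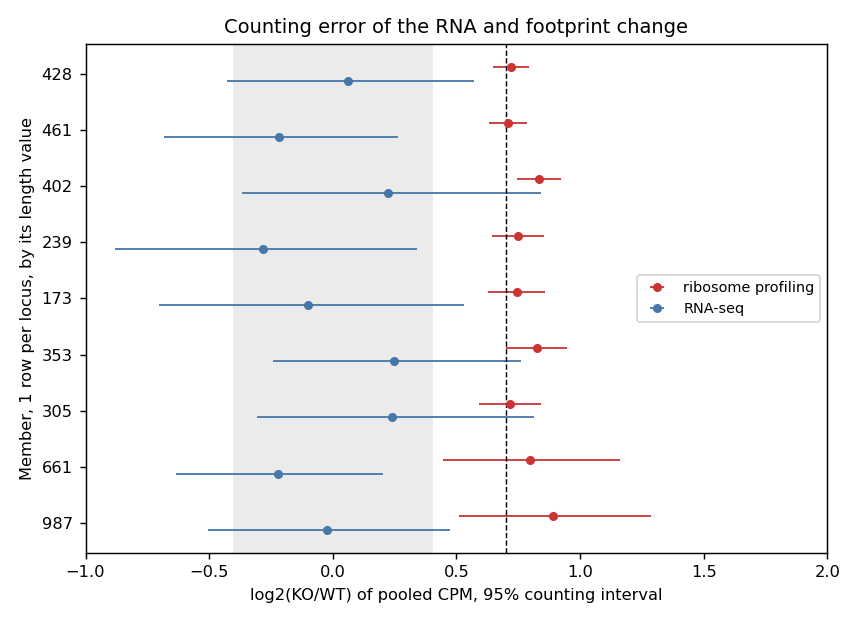
Log2 ratio of KO to WT of the 9 loci in ribosome profiling (red) and RNA-seq (blue), from pooled CPM, with 95% counting intervals. The grey band is the RNA window and the dashed line the footprint threshold; all 9 RNA intervals extend beyond the band.

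Fitted over all features with edgeR's quasi-likelihood test (adjusted p under 0.05), footprints in KO vs WT were called higher in 17 of 17 members, where 11.4% of the 33221 features tested were called higher. The edgeR adjusted p ran from 4.00e-07 to 0.00895. This contrast chose the members, so the count adds nothing to the rule. Without the lower-numbered WT organoid the number called was 7, and DESeq2 called 9. RNA-seq in KO vs WT was called in 0 of 17 members, where 17.4% of 12356 features were called; 0 members had an unadjusted p under 0.05, and DESeq2 also called 0. The rule had kept the pooled RNA ratio of KO to WT inside its window, and the members had few RNA-seq counts. A lack of RNA-seq calls in KO vs WT was thus favoured by the choice and by depth. That count and its gap to the share over all features describe the set and carry no test. A p that misses the threshold does not show that the RNA was the same.

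Density was tested through the interaction of genotype with assay in 1 fit over both kinds of library. Its log2 change in KO vs WT was 0.50 to 1.03 over the 17 members, and edgeR called 0 of them. Over all 30890 features 0.796% were called higher, and the median change was -0.12. The rule had set the members' footprint and RNA changes in these same KO and WT libraries, so a higher KO density was built into the choice. Member counts in this contrast therefore describe the set and carry no test. At an unadjusted p under 0.05, 13 of 17 members, or 7 of 9 loci, were higher, where 5.48% of all features were. That number fell to 4 members without the lower-numbered WT organoid and to 4 without the lower-numbered KO organoid, and it was 9 with no filter on low counts. The nearest to a call was the row of length 661, with a log2 density change of 1.02 (SE 0.30, edgeR adjusted p = 0.0502), followed by the row of length 239 with 1.03 (SE 0.32, edgeR adjusted p = 0.0652). DESeq2 called 2 members, relative log expression factors gave 2, and fitting only the 2 genotypes gave 1. A fit with the organoid number as replicate block called 1, and leaving out the lower-numbered WT organoid or the lower-numbered KO organoid called 1 each. In pooled CPM the WT, Het and KO ratios were 1.62, 1.49 and 2.56 for the row of length 428. They were 1.06, 1.05 and 2.16 for the row of length 239, and 0.054, 0.084 and 0.10 for the cluster's row of length 987. In Het the rows of length 428 and 239 thus lay slightly below the WT ratio, whereas the cluster lay in between. At lengths 402 (1.55, 1.29 and 2.37) and 353 (0.58, 0.55 and 0.86) Het also lay below WT. At lengths 305 (0.70, 0.79 and 0.98) and 173 (0.92, 1.48 and 1.64) Het lay in between. So it did at lengths 461 (1.22, 1.86 and 2.32) and 661 (0.045, 0.077 and 0.092). All of these ratios rest on the few RNA-seq counts described above.

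The Het libraries took no part in the choice, but the WT libraries they are compared with did, and a row with low WT footprints by chance would raise both contrasts. With that limit, pooled Het footprints lay above WT in 16 of 17 rows and 8 of 9 loci, against 49.2% of the rows in the RNA window. They lay between WT and KO in the same number of rows, against 25.5%. The rule placed KO well above WT in the members, so a Het value had more room to fall between them. Over the rows in the RNA window the quartiles of the footprint log2 ratio of KO to WT were -0.17 and 0.18. The gap between the shares of rows with Het in between therefore carries no test. Both Het libraries lay above both WT libraries in 15 of 17 rows and 7 of 9 loci, against 22.1%. The exceptions were the rows of length 428 and 239. The pooled Het value was nearer to KO than to WT in 4 of 17 rows and 3 of 9 loci. In the RNA window this held for 48.2% of the rows and 46.7% of the loci. The 4 rows were those of length 661, 402 and 461 and the cluster's isoform of length 717. The rule acts on this share too, since it chose rows by their KO and WT values.

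By edgeR, footprints in Het vs WT were called higher in 2 of 17 members, against 0.485% of all features. The row of length 402 rose by 0.51 (SE 0.10, edgeR adjusted p = 0.0171) and the row of length 461 by 0.45 (SE 0.09, edgeR adjusted p = 0.0246). Both had a KO vs WT change of more than that, 0.82 (SE 0.10) and 0.72 (SE 0.09). Without the higher-numbered Het organoid the number called was 0, and without the higher-numbered WT organoid, as with only the 2 genotypes fitted, it was 1. The row of length 661 had the largest Het value, 0.57 (SE 0.20), with an edgeR adjusted p of 0.24. The smallest were 0.01 (SE 0.07) in the row of length 428 and 0.05 (SE 0.08) in that of length 239. RNA-seq in Het vs WT was called in 0 of 17 members, where 2.38% of features were called; 1 member had an unadjusted p under 0.05, and DESeq2 called 0. That member was the row of length 402, whose RNA-seq value in Het was 0.69 (SE 0.32, edgeR adjusted p = 0.278), of a size with its footprint change.

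**Figure D4:**
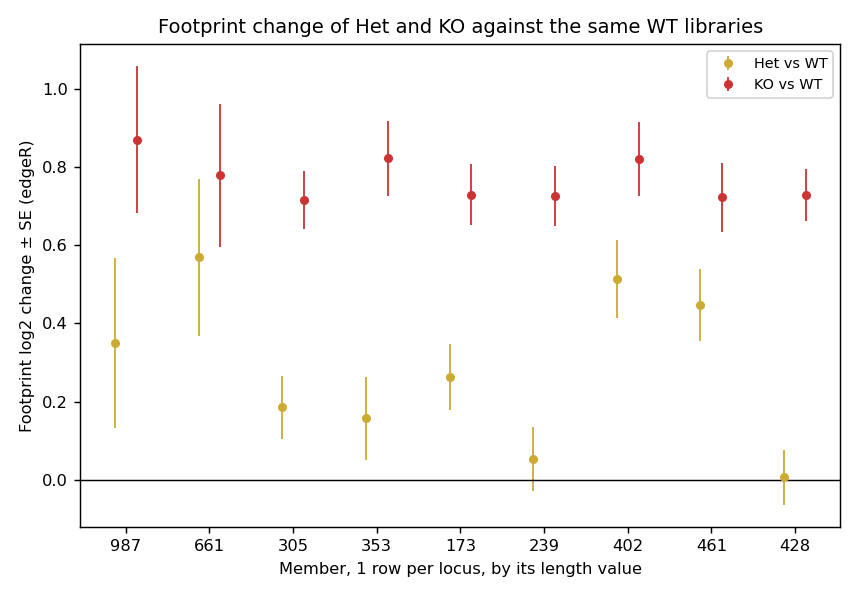
Footprint log2 change of Het and of KO against the same WT libraries, from edgeR, with SE, for 1 row per locus named by its length value. The Het values run from 0.01 at length 428 to 0.57 at length 661, all below the KO value of their locus.

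KO footprints were also set against Het, a contrast that shares its KO libraries with the rule. The rule chose rows with high KO footprints, so a rise of KO over Het was favoured by the choice. The member counts and p-values of this contrast describe the set and carry no test. By edgeR 13 of 17 members, in 8 of 9 loci, were called higher in KO vs Het, against 10.4% of all features. The row of length 428 rose by 0.72 (SE 0.07, edgeR adjusted p = 3.89e-07), the row of length 239 by 0.67 (SE 0.07) and that of length 353 by 0.67 (SE 0.09). The locus not called was the row of length 661, at 0.21 (SE 0.16, edgeR adjusted p = 0.37). The count fell to 5 without the lower-numbered KO organoid, to 5 without the lower-numbered Het organoid, to 7 without the higher-numbered one and to 5 with DESeq2. Het vs WT and KO vs Het share the Het libraries, and KO vs WT shares its libraries with both.

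To read the same measure in libraries that the choice had not used, the rule was applied to 1 WT and 1 KO organoid, with floors of 15 RNA-seq and 100 footprint counts, and the chosen rows were read in the WT and KO organoids left out. This was done for the 4 combinations, which share libraries and are not independent. They chose 21, 9, 35 and 18 rows from 12, 7, 18 and 13 loci. In the organoids left out, 88.9% to 100% of the chosen rows had higher footprints in KO than in WT, against 47.1% to 51.8% of all rows past the floors. The median log2 difference there was 0.44 to 0.82, against -0.02 to 0.01 over all rows. Isoforms of 1 locus enter these shares several times. Counted by locus, at the median of its rows, footprints were higher in KO in 10 of 12, 7 of 7, 16 of 18 and 12 of 13 loci. The direction of the footprint difference was thus found again in most chosen loci, and its median size fell below 0.7 in 3 of the 4 combinations.

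RNA levels in the left-out organoids differed between the combinations, and in 1 of them the value depends on whether rows or loci are counted, because isoforms of 1 locus enter several times as rows. The values below give each locus once, at the median of its rows. With rows chosen in the lower-numbered WT and KO organoids, the median RNA log2 difference was -0.08 beside a footprint median of 0.63, and 5 of 12 loci had more RNA in KO. Over rows the RNA median of that combination was 0.28, of the opposite sign. With rows chosen in the higher-numbered WT and the lower-numbered KO organoid, the medians were 0.05 in RNA-seq and 0.50 in footprints, with more RNA in KO in 11 of 18 loci. With the lower-numbered WT and the higher-numbered KO organoid they were 0.80 and 0.82, with more RNA in KO in 5 of 7 loci. With the higher-numbered organoid of both genotypes they were 0.44 and 0.55, with more RNA in KO in 12 of 13 loci. Counted by locus, a footprint difference stood beside an RNA median near 0 in 2 of the 4 combinations, those chosen with the lower-numbered KO organoid. Over rows the RNA medians were 0.08 to 0.75, and 12 of 21, 1 of 9, 26 of 35 and 9 of 18 rows, in the order of the combinations given with their number of rows, stayed within 0.4. Of the chosen rows, 15, 0, 13 and 3 were among the 17 members.

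Het footprints against the left-out WT organoid, a comparison in which neither library chose the rows, were above 0 in 55.6% to 81.0% of chosen rows, against 46.1% to 49.7% of all rows. Counted by locus these were 8 of 12, 4 of 7, 12 of 18 and 8 of 13. The medians of 0.03 to 0.20 were smaller than the KO medians in all 4 combinations.

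**Figure D5:**
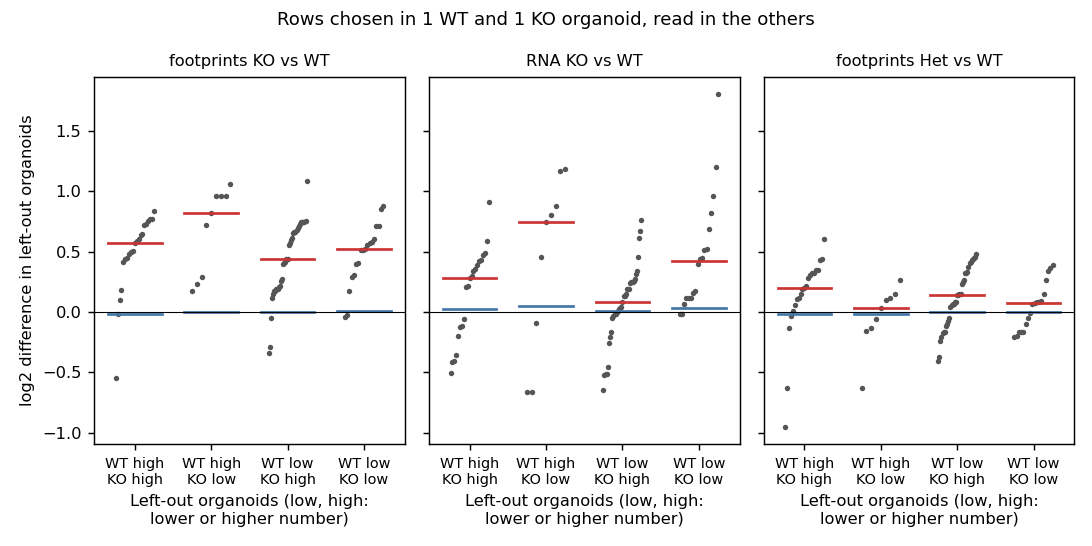
Rows chosen by the rule in 1 WT and 1 KO organoid, read as log2 differences in the organoids left out (the lower- or higher-numbered of each genotype, named under each column), 1 point per row, for footprints in KO vs WT, RNA in KO vs WT and footprints in Het vs WT. Red bars are medians of the chosen rows and blue bars medians of all rows past the floors; footprint medians in KO lie between 0.44 and 0.82.

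Length and abundance were compared with the rows in the RNA window. The 9 loci had a median length of 402, against 532.5 over 950 loci in the RNA window, each given by 1 row. Of the 9, 2 had lengths below 300, 5 from 300 to below 600 and 2 from 600 upwards. The shares of the 950 loci in these classes were 22.9%, 35.2% and 41.9%. The 13 loci with lower footprints at steady RNA had a median length of 715. Counted by rows instead, the members' median was 685, because the isoform cluster entered 9 times.

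Per 100 units of length, WT footprints had a median of 15.2 CPM over the 9 loci, against 5.74 over the 950 loci and 4.12 over the 13 loci with lower footprints. The 7 abundant loci lay between 9.20 and 22.2, and the other 2 at 0.34 and 0.60. WT RNA-seq per 100 units of length had a median of 14.9 CPM over the 9 loci and 13.7 over the 950. The median ratio of footprint to RNA-seq CPM in WT was 0.92 over the 9 loci, against 0.36 over the 950. Since WT and KO footprint counts entered the rule, these values describe the members and carry no test.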

How the data were processed

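The authors deposited, for each of the 12 libraries, a table of raw counts per transcript without a header, with 278268 rows of an ID, a whole number used here as length, and a count. The submitters' processing notes name CASAVA 1.8, cutadapt 3.7, UMI-tools 1.1.2, STAR 2.7.0a and the build mm39, with no role or order. The counting tool and the annotation are not given in the sources used here. A read was counted on several isoforms, so rows are not independent.

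Rows with equal counts in all 12 tables were merged (45864 features with a count; merged rows kept the longest length). CPM used the total of all deposited rows of a library or pooled group. Rows were joined into loci when 1 of the next 25 rows with counts matched in profile (at least 24 counts each, and a chi-square under 3.05 or an SD of the log2 ratio under 0.15; identical rows from 6 counts). A locus is a read-sharing group, not an annotated gene, and its borders are uncertain where near-identical or overlapping genes share reads.

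Tests used edgeR 4.0.16 under R 4.3.3, with TMM scaling, filterByExpr and two-sided quasi-likelihood F tests, adjusted by Benjamini-Hochberg over all features. The 6 libraries of an assay shared 1 fit. Density used all 12 libraries. All 17 members passed the filter in each assay, as did 33221 features in footprints, 12356 in RNA-seq and 30890 in density. Each SE was derived from the log2 change and its F statistic. Left-out values used 0.5 added counts. Scripts were tested on simulated data.

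The members, lists and tests were chosen with earlier results of these data known. The rule for named rows allowed 2 IDs where no source pairs IDs with genes, the highest and the most abundant member; other members are named by length. The gene and marker lists were not applied for the same reason, and no sequence is printed. Alternatives were DESeq2 1.42.0, relative log expression factors, no count filter, 2 genotypes, a replicate block, left-out organoids and other settings of the rule.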

Additional observations from a re-analysis of the deposited data

How the results depend on the processing

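The number of members depended on the rule's settings. It was 17 rows, and 9 with 1 row per locus. An RNA floor of 100 pooled counts left 0, a footprint threshold of 1 left 1 and an RNA window of 0.2 left 10 from 3 loci. Leaving out 1 WT or KO organoid, with unchanged floors, left 3 to 10. The 4 rows found without the lower-numbered WT organoid and the 3 without the lower-numbered KO organoid held 0 of the 17. The 4 without the higher-numbered WT organoid held 4, and the 10 without the higher-numbered KO organoid held 7. CPM over merged rows and TMM sizes gave 19 each, and no footprint floor 21, with all 17 kept.

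Members called with DESeq2 were 9 in footprints KO vs WT, 5 in KO vs Het and 2 in density KO vs WT; 10 members had no DESeq2 adjusted p in footprints Het vs WT and 16 in RNA-seq Het vs WT. With only the 2 genotypes 1 was called in footprints Het vs WT and 1 in density, and with relative log expression factors 2 in density. Leaving out each organoid gave 7 to 17 in footprints KO vs WT, 0 to 2 in Het vs WT, 5 to 15 in KO vs Het and 0 to 1 in density. RNA-seq gave 0 in each alternative run, with at most 1 member at an unadjusted p under 0.05. The cause of these moves was not tested, beyond fewer rows or libraries by construction. In the left-out organoids a median of 91% of chosen rows had higher KO footprints over the 4 combinations, and 100% with the rule's own floors, where 1 combination chose 0 rows and the others 3 or 4.

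The replicate block by organoid number gave 1 density call against 0. Same-numbered RNA-seq and footprint libraries deviated together weakly, with r of 0.069 in WT, 0.12 in Het and 0.041 in KO over 1388 features with at least 300 RNA-seq counts, so pairing was not taken as shown. RNA-seq depth limits the ratio of every member.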

Other observations

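The same thresholds, applied outside the length range of the members, gave fewer rises than falls at steady RNA. Among rows with a length of 1000 to below 2000, 0 of 684 in the RNA window had a footprint ratio at or above 0.7 and 36 (5.26%), from 19 loci, lay at or below -0.7. At a length of 2000 or more, 2 of 210 rows, from 1 locus, lay above and 13 (6.19%), from 10 loci, lay below. From 91 to below 1000 the shares were 1.12% and 1.38%. Below 91, 0 of 26 rows passed either threshold. The median footprint ratio of the rows in the RNA window was 0.11 below 91, 0.01 from 91 to below 1000, -0.03 from 1000 to below 2000 and 0.02 at 2000 or more. These are counts of rows that share reads within a locus, and no test of the difference between length classes was run.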
